A study of Mus musculus with 6 samples.

Results

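The 52 genes described here serve the endoplasmic reticulum (ER) and the early secretory pathway, and they were chosen by name: every row of the expression table whose symbol was on the list was a member. All 52 symbols had a row among the 15803 genes of the table. Growth plate cartilage of mouse embryos at embryonic day 18.5 was sequenced as 6 poly(A) RNA libraries, 3 labelled WT and 3 labelled CKO. The WT embryos were Hnrnpk fl/fl and the CKO embryos were Col2a1-Cre;Hnrnpk fl/fl, so that both groups carried loxP sites around exons 4 to 7 of Hnrnpk and only CKO carried a Cre recombinase, driven by the Col2a1 promoter of chondrocytes. Only cells of the sample in which this promoter was never active, and was never active in their precursors, would be expected to keep the gene. The labels do not say whether each library came from a separate embryo, so p-values measure only the spread between these libraries.

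Chondrocytes secrete large amounts of collagen and proteoglycan, and each chain first enters the ER. Chains pass through the translocon, are folded by chaperones such as Hspa5 (BiP) and cross-linked by protein disulfide isomerases, and leave in vesicles coated by COPII, while proteins that carry a KDEL signal are fetched back from the Golgi by KDEL receptors. When unfolded chains accumulate, 3 membrane sensors, Ern1 (IRE1), Eif2ak3 (PERK) and Atf6, start the unfolded protein response. Atf6 and the spliced product of Xbp1 induce chaperones and the machinery of ER-associated degradation, whereas PERK acts through Atf4 on genes such as Ddit3 (CHOP), Trib3 and Chac1.

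Many chaperone genes carry an ER stress response element in their promoter, the letters CCAAT and CCACG held apart by 9 bases (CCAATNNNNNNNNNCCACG), which is known to be bound by the factor NF-Y together with Atf6 or Xbp1. The RefSeq promoter windows of GRCm38.p6, from 250 bases before to 50 bases after each start site, held a window for 43 of the 52 genes. The element was found on either strand in the windows of 8 of the 43 genes (18.6%), against 37 of 27021 genes with a window (0.137%). The sites of these 8 genes, and that of Derl3, a degradation gene outside the 52, are shown because 5 of the 8 genes and Derl3 are among those that stood far higher in a single library, described further on. Each run follows the strand of the gene from 5′ to 3′, the capitals mark the element, flanked by 20 bases in lower case on either side, and capitals that open with CGTGG hold the element on the opposite strand.

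Hspa5 (chr2:34772005-34772063, plus strand): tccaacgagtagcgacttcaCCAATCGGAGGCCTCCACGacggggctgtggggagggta
Creld2 (chr15:88819500-88819558, plus strand): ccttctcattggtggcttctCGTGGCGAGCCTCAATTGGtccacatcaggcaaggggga
Dnajc3 (chr14:118937807-118937865, plus strand): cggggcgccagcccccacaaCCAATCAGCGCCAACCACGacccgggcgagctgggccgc
Hsp90b1 (chr10:86705618-86705676, minus strand): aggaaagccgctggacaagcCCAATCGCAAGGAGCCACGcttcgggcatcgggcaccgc
Hsp90b1 (chr10:86705513-86705571, minus strand): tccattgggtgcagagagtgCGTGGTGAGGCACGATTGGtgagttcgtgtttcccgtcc
Calr (chr8:84847055-84847113, minus strand): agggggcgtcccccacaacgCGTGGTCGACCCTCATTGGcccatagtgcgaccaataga
Pdia6 (chr12:17266471-17266529, plus strand): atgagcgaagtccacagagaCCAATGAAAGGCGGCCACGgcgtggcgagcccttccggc
Syvn1 (chr19:6046512-6046570, plus strand): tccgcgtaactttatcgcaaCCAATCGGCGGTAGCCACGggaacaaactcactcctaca
Canx (chr11:50325780-50325838, minus strand): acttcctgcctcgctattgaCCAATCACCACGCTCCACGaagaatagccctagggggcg
Derl3 (chr10:75893222-75893280, plus strand): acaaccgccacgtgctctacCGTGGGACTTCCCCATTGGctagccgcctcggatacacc

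The 9 bases between the fixed ends differed from site to site, and Hsp90b1 held the element at 2 places in its window. The related ER stress response element II (ATTGGNCCACG) was found in 2 of the 43 genes (4.65%), Herpud1 and Dnajb11, against 12 of 27021 genes (0.0444%). The site of Herpud1 lies before its start site and is shown with the same marking.

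Herpud1 (chr8:94386357-94386407, plus strand): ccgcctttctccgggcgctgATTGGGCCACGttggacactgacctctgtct

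The letters TGACGTGG were found in Kdelr3, Sec23a and Sec24d (3 genes, 6.98%) against 193 of all genes (0.714%), and the amino acid response element (TGATGNAAT) in 0 of the 43 genes against 293 of all genes (1.08%). Either strand counted in each search, and no motif was searched beyond these 4. A match describes letters and not a bound site. A window without a match does not exclude a site with other letters or a site outside the window.

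The authors deposited scaled counts (CPM), in which the reads of a library add up to 1000000. The recovered reads amounted to 1183743 to 1379674 in the WT libraries and 1153871 to 1454094 in the CKO libraries, so that 1 read was worth 0.688 to 0.867 CPM and 3 reads 2.06 to 2.60 CPM. The targeted gene itself was listed at 842, 955 and 944 CPM across WT 1 to 3 against 759, 949.9 and 780.0 CPM across CKO 1 to 3, a log2 difference of -0.14 (SE 0.15) with a limma adjusted p of 0.62. The CKO libraries overlapped the WT libraries in this value, which covers the whole gene, and exons 4 to 7 were not analysed separately here. The groups are therefore named by their labels, and values are given in the order of libraries 1 to 3 throughout. Protein was not measured in these libraries. The paper reports, by western blot and immunostaining, an effective loss of Hnrnpk protein in CKO growth plates at an earlier embryonic age.

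The library CKO 2 differed from the others in many of these genes, as the heat map of all 52 genes shows. It was the highest library for 22 of the 52 genes and the lowest for 16, against 22.8% and 23.3% of the 6827 genes that averaged 10 CPM or more. WT 3 came next, as the highest library for 20 of the 52 genes and the lowest for 8, against 20.8% and 19.4%. Of the 50 genes that averaged 10 CPM or more, 8 (16%) were at least 2-fold higher in CKO 2 than in the highest of the other 5 libraries, against 89 of 6827 genes (1.30%). None of the 50 genes reached this mark in any other library, although 99 of the 6827 genes did so in WT 3. CKO 2 was above both other CKO libraries for 12 of 12 genes grouped as lumenal chaperones, though by little in Creld1. The same held for 4 of 4 degradation genes, 3 of 4 disulfide isomerases and 5 of 10 sensors and factors, against 41.1% of the 12155 genes averaging 1 CPM or more. It was below both for 6 of 7 translocon, 6 of 7 COPII and 6 of 8 retrieval genes, against 37.6%. These shares by role carry no test. Without CKO 2, the log2 difference between the genotypes changed sign in 12 of the 52 genes and moved by over 1.5 times in another 19. None of these passed the threshold with all libraries. These changes were not counted over all genes, so the counts do not set the 52 genes apart. The plot of log2 differences gives every gene both ways.

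**Figure D1:**
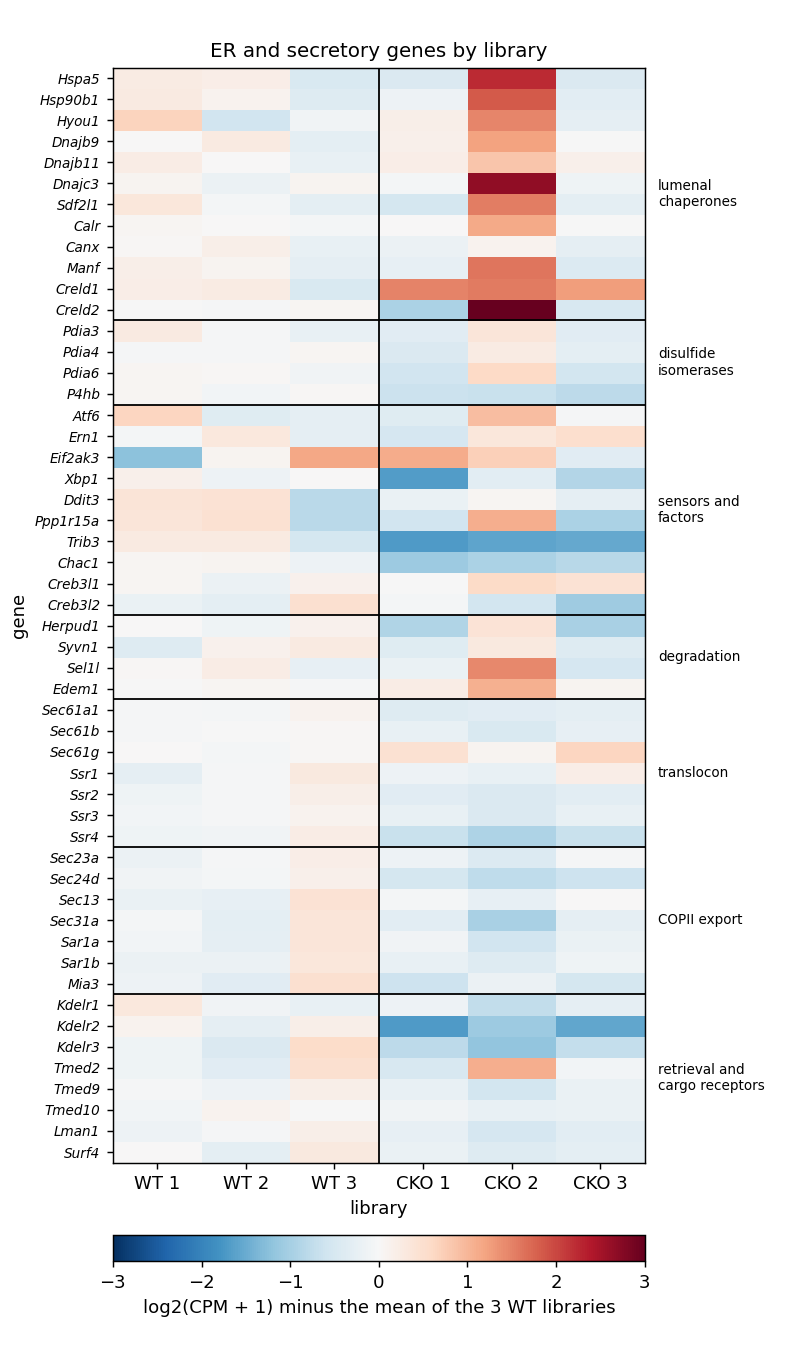
Heat map of the 52 genes (rows, grouped by role) in the 6 libraries (columns); colour gives log2(CPM + 1) minus the mean of the 3 WT libraries, from -3 (blue) to 3 (red). Most chaperone rows are red in CKO 2 and pale in CKO 1 and CKO 3, whereas the rows of Kdelr2, Trib3 and Chac1 are blue in all 3 CKO libraries and that of Creld1 is red in all 3.

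The 8 genes were Creld2, Dnajc3, Hspa5, Hsp90b1, Manf, Sel1l, Sdf2l1 and Calr, and they were singled out after their values were seen. Hspa5, the main Hsp70 chaperone of the ER, stood at 1700.4, 1664 and 1051 CPM in WT, compared with 1063, 6803 and 1059.9 CPM in CKO. CKO 2 was 6.40 times the higher of the other CKO libraries, while CKO 1 and CKO 3 lay just above the lowest WT library. Per kilobase of exon, the mean level of Hspa5 was 348 CPM in WT and 704 CPM in CKO, the latter raised by CKO 2.

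Creld2, a secreted ER protein known to be induced by ER stress, was listed at 108, 106 and 112 CPM in the WT libraries versus 55.7, 1106 and 78.0 CPM in the CKO libraries. Its value in CKO 2 was 14.2 times that of the higher of the other CKO libraries, which were themselves both below the lowest WT library. Dnajc3 (p58IPK), a co-chaperone of Hspa5 that also curbs PERK, was at 79.7, 66.0 and 79.4 CPM across WT 1 to 3 against 71.5, 481 and 68.5 CPM across CKO 1 to 3. For this gene CKO 1 and CKO 3 lay inside the WT range and CKO 2 was 6.04 times the highest of the others.

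Hsp90b1 (GRP94), the Hsp90 of the ER, was at 93.5, 84.0 and 59.1 CPM in WT, compared with 70.1, 281 and 61.5 CPM in CKO. Manf, a small protein released under ER stress, was at 312, 292 and 226 CPM in the WT libraries versus 230.4, 835 and 205 CPM in the CKO libraries. In both genes CKO 2 was the only library outside the range set by the WT libraries on the high side, at 2.68 times the highest of the other 5 for Manf. Sdf2l1, a partner of Hspa5, was at 35.5, 27.0 and 22.8 CPM across WT 1 to 3 against 19.3, 83.0 and 22.5 CPM across CKO 1 to 3. Calr, a lectin chaperone that binds calcium, was at 451, 438 and 416 CPM in WT, compared with 440.1, 956 and 429.9 CPM in CKO. The Calr value in CKO 2 was 2.12 times the highest of the others, which spanned only 416 to 451 CPM. Sel1l, a scaffold of the degradation complex, was at 53.6, 60.8 and 43.9 CPM in the WT libraries versus 45.4, 143 and 36.4 CPM in the CKO libraries.

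**Figure D2:**
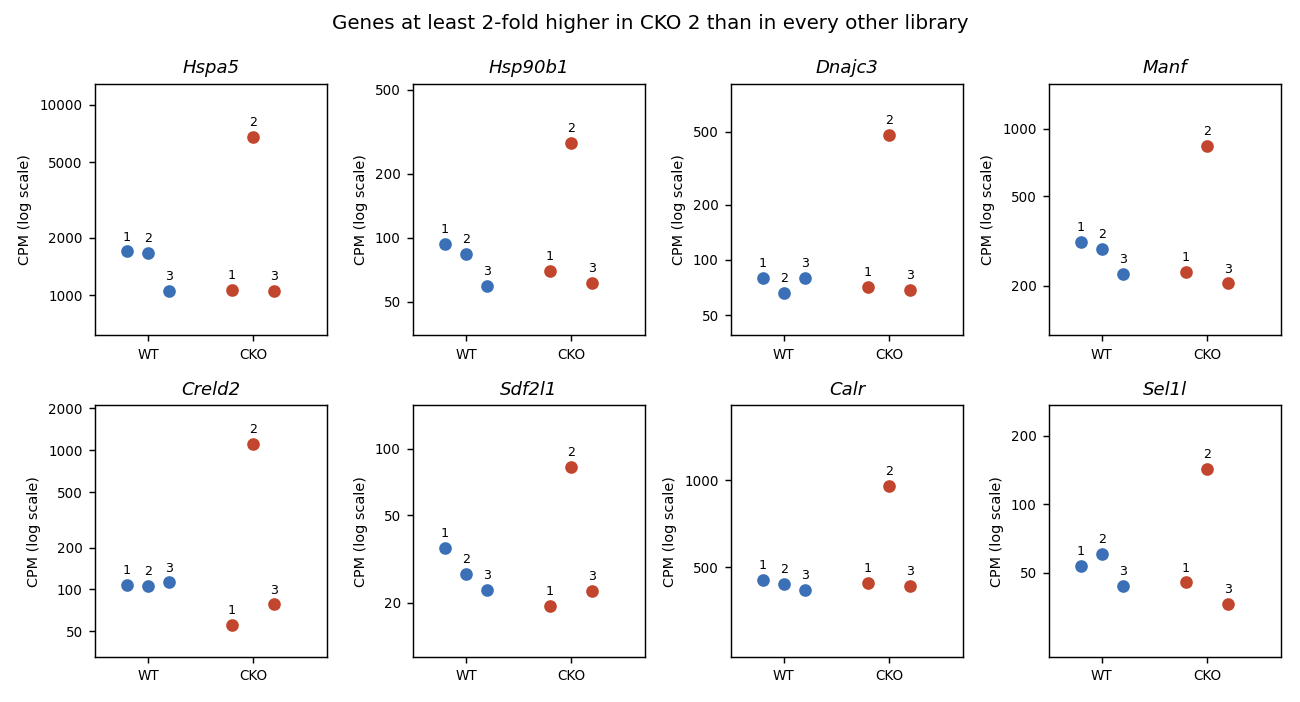
CPM (log axis) of the 8 genes in each WT and CKO library; points are single libraries, numbered by replicate, and no mean is drawn. In every panel CKO 2 lies above the other 5 libraries, by 2.12-fold (Calr) to 9.85-fold (Creld2), and CKO 1 and CKO 3 lie near or below the WT libraries.

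Ranked by CKO 2 over the highest of the other 5 libraries, Derl3 held rank 1 of 6827 genes, Creld2 rank 2, Dnajc3 rank 5, Hspa5 rank 14 and Hsp90b1 rank 28, and 4 of the first 30 genes belonged to the 52. Derl3, which moves proteins out of the ER for degradation, was at 1.45, 0.750 and 0.845 CPM across WT 1 to 3 against 4.81, 171 and 0.867 CPM across CKO 1 to 3. CKO 2, with 237 reads, was 35.5 times CKO 1, with 7 reads, the next highest. Derl3 reached the mean of 10 CPM that this ranking asks for only through CKO 2, so its rank is not independent of the filter. The ranks describe a single library and carry no test.

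The genes with the element shown above were compared with the rest by the same measure. Of the 8 genes with the element, 7 (87.5%) had their highest value in CKO 2 and 5 (62.5%) were at least 2-fold higher there, against 23.4% and 1.30% of the 5321 genes with a window and a mean of at least 10 CPM. Of the 5 genes outside the 52 with the element and a mean of at least 10 CPM, 4 (80%) had their highest value in CKO 2 and 1, Derl3, passed 2-fold. Derl3 reached that mean only through its value in CKO 2. The other motifs searched gave lower shares. Of the 8 genes with the ER stress response element II at this level, 3 (37.5%) were highest in CKO 2 and 0 reached 2-fold, the 3 being Herpud1, Dnajb11 and 1 of 6 genes outside the 52. Of the 62 genes with TGACGTGG, 7 (11.3%) were highest in CKO 2 and 1 reached 2-fold, with 0 of the 3 members among the 7, and of the 33 genes with the amino acid response element, 4 (12.1%) were highest in CKO 2 and 0 reached 2-fold. Sdf2l1 and Sel1l were high in CKO 2 with a window that lacks the ER stress response element, and Manf had no window. The 5 genes with the element that passed 2-fold are among the 8 singled out above for their values in CKO 2. These shares describe a single library and carry no test, and whether any factor acted through the element was not tested.

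Between the genotypes, 1 of the 52 genes rose and 5 fell past the adjusted threshold (limma adjusted p under 0.05, Benjamini-Hochberg over 12155 genes tested). Over all genes tested, 3.18% rose and 2.6% fell. All 52 genes passed the filter on low values, an average of 1 CPM or more. By the criterion of the study, which asks for a change of more than 1 on the log2 scale and p under 0.05 without adjustment, 1 gene was higher and 2 were lower, against 5.3% and 5.1% of all genes. At an unadjusted p under 0.05 alone, 2 genes were higher and 12 lower, against 11.2% and 10.1%. The 3 CKO libraries lay above the 3 WT libraries in 3 genes and below them in 15, against 14.5% and 13.2% of all genes. With 3 libraries a group, an exact two-sided permutation test of a single gene cannot go below 0.1. The log2 difference was positive in 19 and negative in 33 of the 52 genes, against 6180 and 5975 of all genes tested. The median log2 difference was -0.15 over the 52 genes and 0.013 over all genes tested.

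Without CKO 2, 2 of the 52 genes passed the adjusted threshold as higher and 10 as lower, against 5.74% and 5.03% of the 12055 genes then tested. The number with a positive log2 difference went from 19 to 9 and the median from -0.15 to -0.26. The 2 higher genes were Creld1 and Sec61g, and the 10 lower genes were Creld2, Pdia6, P4hb, Xbp1, Trib3, Chac1, Herpud1, Ssr4, Sec24d and Kdelr2. Leaving out any other library gave 0 higher genes and 2 to 5 lower ones. Trib3 and Kdelr2 were past the threshold in each of the 13 other settings tried.

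**Figure D3:**
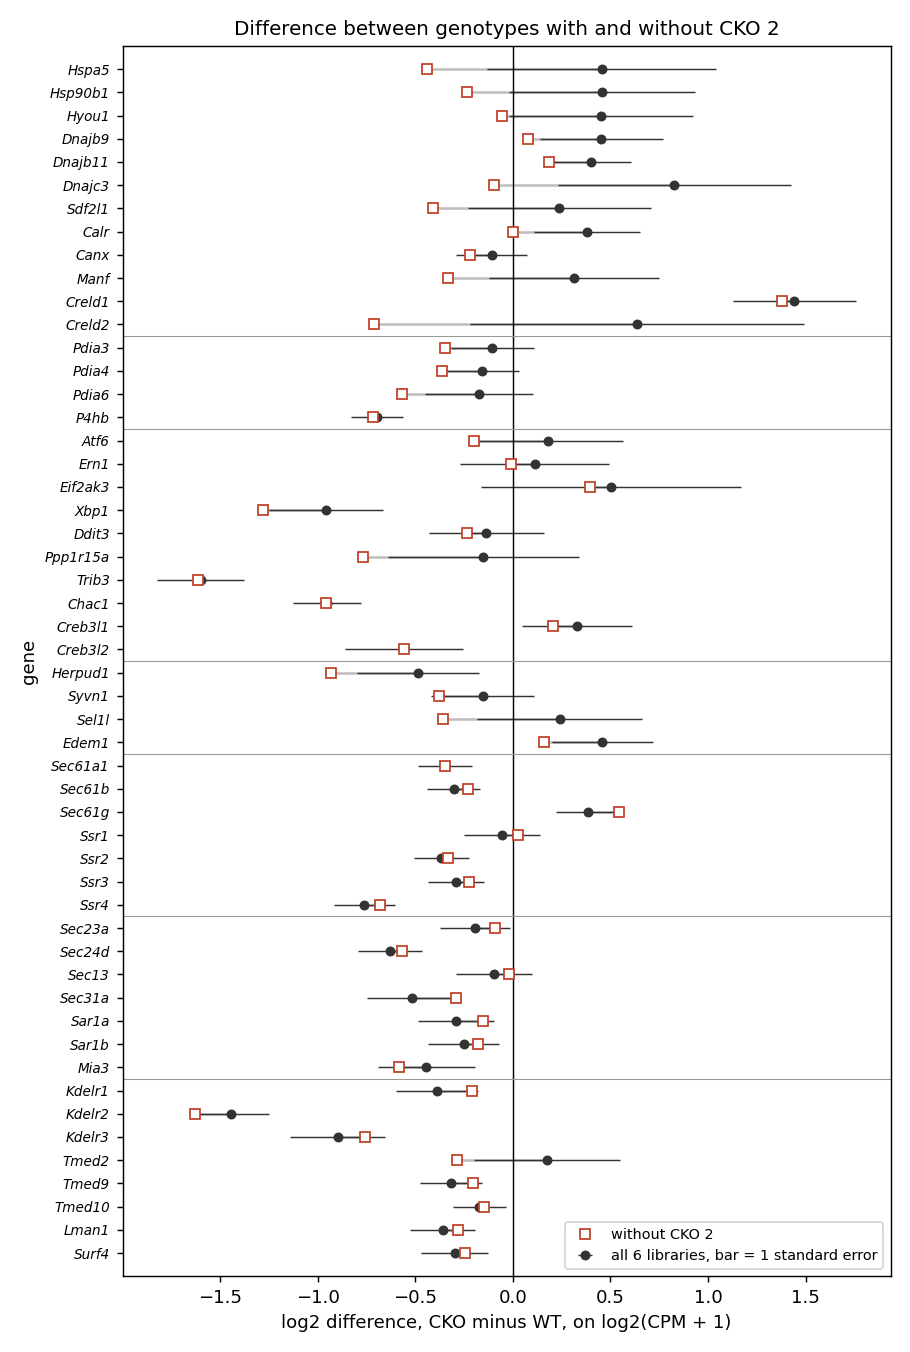
Log2 difference on log2(CPM + 1), CKO minus WT, of each of the 52 genes (rows, grouped by role) with all 6 libraries (filled points, bar 1 standard error) and without CKO 2 (open squares), joined by a grey line. The chaperones move from the positive to the negative side when CKO 2 is left out, except for Canx, negative in both, and Creld1, Dnajb9, Dnajb11 and Calr, the last of which comes to lie near 0.

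Kdelr2, a KDEL receptor that returns lumenal proteins from the Golgi to the ER, had the smallest limma adjusted p of the 52 genes (chr5:143403838-143421901, plus strand, GRCm38). It was listed at 531, 409.7 and 558 CPM in WT, compared with 153, 233 and 167 CPM in CKO, or 499.5 ± 78.9 CPM (SD, n = 3) for the WT group versus 184 ± 42.9 CPM (SD, n = 3) for the CKO group. The groups did not overlap, and the lowest WT library was well above CKO 2, the highest CKO library. The fit gave a log2 difference of -1.44 (SE 0.20) with a limma adjusted p of 0.0036, and without CKO 2 the difference was -1.63. Trib3, described further on, fell further and had the smaller adjusted p with edgeR and DESeq2.

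The other receptors of the family did not pass the threshold. Kdelr3 was at 343, 278 and 546 CPM in the WT libraries versus 215, 165 and 226 CPM in the CKO libraries, again without overlap, a log2 difference of -0.90 (SE 0.24) with a limma adjusted p of 0.057. It is one of the 3 genes nearest to the threshold on its outer side, and it overlaps another gene of the table on the opposite strand, so reads of the pair may be mixed because the strand setting of the counting is not given in the sources used here. Kdelr1 was at 262, 197 and 182 CPM across WT 1 to 3 against 190.5, 125 and 174 CPM across CKO 1 to 3 with overlapping groups and a difference of -0.39 ± 0.21 (SE), or -0.21 without CKO 2. Per kilobase of exon, the mean WT levels were 276 CPM for Kdelr3, 273 CPM for Kdelr2 and 114 CPM for Kdelr1, and the mean CKO levels were 143, 101 and 87.1 CPM.

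Of the 8 retrieval and cargo receptor genes, 1 had a positive and 7 a negative difference, and Kdelr2 alone passed the adjusted threshold. Tmed2, a p24 protein of COPI and COPII vesicles, had the highest difference of the group. It was at 48.6, 42.0 and 74.3 CPM in WT, compared with 37.8, 115 and 50.3 CPM in CKO, with CKO 2 as the highest library of all and a difference of 0.17 ± 0.37 (SE) that became -0.29 without CKO 2. Near-identical copies of Tmed2 exist at 3 other genes, which leaves its level uncertain. Tmed9 was at 1131, 1051 and 1316 CPM in the WT libraries versus 1001, 793 and 1017 CPM in the CKO libraries and Lman1, which carries glycoproteins to the Golgi, at 145, 157 and 181 CPM across WT 1 to 3 against 134, 112 and 129 CPM across CKO 1 to 3. In both, all 3 CKO libraries lay below the WT libraries, and the adjusted p was 0.28 and 0.25. Tmed10 (-0.17 ± 0.14 (SE)) was also separated, and Surf4 (-0.30 ± 0.17 (SE)) was not. Further genes overlap another gene of the table or have a near-identical copy: Manf, Ddit3, Ppp1r15a, Syvn1 and Surf4 the former, and Dnajb9, Calr, Sec23a and Tmed10 the latter, with 1 copy each.

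Trib3, a pseudokinase induced by Atf4 and Ddit3 that binds Akt, fell to 0.318 of its mean WT level (chr2:152337422-152344032, minus strand, GRCm38). Its values were 351, 352 and 203 CPM in WT, compared with 90.1, 97.4 and 101 CPM in CKO, or 302 ± 85.8 CPM (SD, n = 3) for the WT group versus 96.0 ± 5.36 CPM (SD, n = 3) for the CKO group. WT 3 was lower than WT 1 and WT 2 but still far above every CKO library. The SE was 0.22 and the limma adjusted p 0.0037.

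Chac1, which breaks down glutathione and is induced by the same branch, fell as well (chr2:119351229-119354381, plus strand, GRCm38). It stood at 122, 123 and 105 CPM in the WT libraries versus 54.3, 59.9 and 65.0 CPM in the CKO libraries, or 117 ± 10.2 CPM (SD, n = 3) for the WT group versus 59.7 ± 5.34 CPM (SD, n = 3) for the CKO group. The groups were clearly apart, a log2 difference of -0.95 (SE 0.18) with a limma adjusted p of 0.013, and CKO 2 lay between CKO 1 and CKO 3 in Chac1 and in Trib3. Leaving out WT 1, WT 2 or CKO 1 took Chac1 out of the call, to an adjusted p of up to 0.079. These 2 genes thus did not share the high values that CKO 2 had in the chaperones, but other genes tied to PERK or Atf4 were mixed. Ppp1r15a, Psat1, Atf3 (15.8, 33.2 and 19.1 CPM in CKO), Slc3a2 (203, 407 and 167 CPM in CKO) and, by little, Atf4 were highest in CKO 2. Asns, Nupr1 and Mthfd2 were lowest there, and Ddit3, Sesn2 and Ddit4 were neither.

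Xbp1, whose mRNA is spliced by Ern1 to give an activator of chaperone and secretory genes, was the last of the 3 genes just outside the threshold. It was at 219.6, 180.1 and 199 CPM across WT 1 to 3 against 61.2, 159.5 and 108 CPM across CKO 1 to 3. All CKO libraries were below the lowest WT library, with CKO 2 the nearest to it and CKO 1 the farthest. The difference was -0.96 ± 0.29 (SE) with a limma adjusted p of 0.087, and it came to -1.28 with an adjusted p of 0.0054 when CKO 2 was left out. The spliced form was not analysed here.

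**Figure D4:**
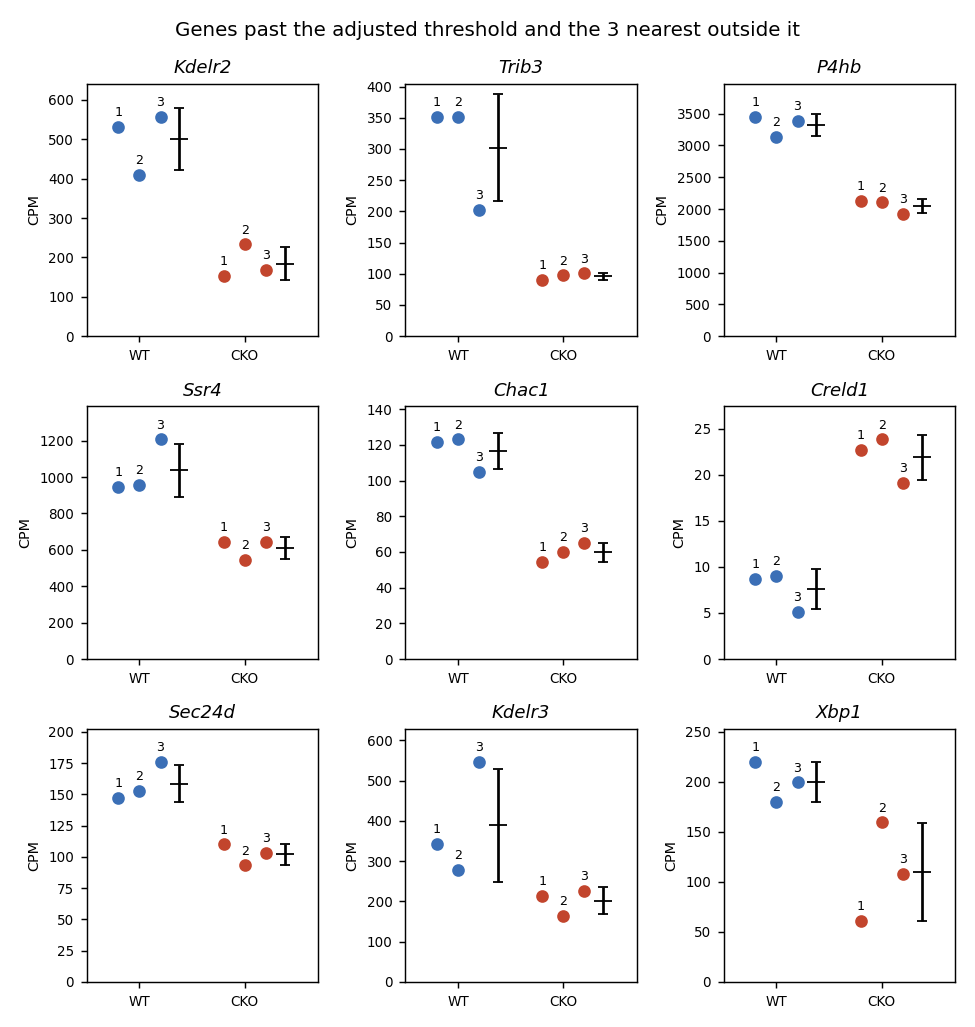
CPM of the 6 genes past the adjusted threshold (Kdelr2, Trib3, P4hb, Ssr4, Chac1, Creld1) and of the 3 nearest outside it (Sec24d, Kdelr3, Xbp1); points are single libraries numbered by replicate, and the black bar gives mean ± SD (n = 3). The WT and CKO points do not overlap in any of the 9 panels, and Creld1 is the only gene with CKO above WT.

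Of the 10 sensors and factors, 4 had a positive and 6 a negative difference, and Trib3 and Chac1 passed the threshold. The 3 sensors were covered by 7 to 97 reads a group. Eif2ak3 had the highest difference of the group, at 0.50 ± 0.66 (SE), yet it rested on 7 reads in WT and 11 in CKO, at 0 to 4.22 CPM in WT and 0.867 to 4.13 CPM in CKO, and its SE exceeded the difference. Ern1 was at 7.97, 10.5 and 6.76 CPM in WT, compared with 5.50, 10.8 and 12.1 CPM in CKO. Atf6 was at 31.2, 15.0 and 16.1 CPM in the WT libraries versus 15.1, 38.3 and 19.1 CPM in the CKO libraries, with its highest value in CKO 2, and the groups overlapped for both genes.

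Ddit3, the factor CHOP, was at 357, 368 and 156 CPM across WT 1 to 3 against 237, 286 and 229 CPM across CKO 1 to 3, with the CKO libraries between WT 3 and the other WT libraries. Ppp1r15a (GADD34), which reverses the block of translation set by PERK, was at 220.3, 233 and 96.3 CPM in WT, compared with 113, 363 and 87.5 CPM in CKO. CKO 2 was 3.20 times the higher of the other CKO libraries in this gene. Creb3l1 (OASIS) differed by 0.33 ± 0.28 (SE) and Creb3l2 (BBF2H7), a membrane-bound factor known to drive secretion in chondrocytes, by -0.56 ± 0.30 (SE). Creb3l2 was at 44.9, 42.0 and 72.7 CPM in the WT libraries versus 49.5, 34.6 and 24.3 CPM in the CKO libraries, and its groups overlapped.

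Of the 12 genes grouped as lumenal chaperones, 11 had a positive difference, with a median of 0.45, and 1, Creld1, passed the threshold. The group is wider than its name, since Creld1 and Canx are membrane proteins. Without CKO 2, 4 were positive and 8 negative, with a median of -0.16. Creld1, a membrane protein with EGF-like repeats that has a role in the heart (chr6:113483297-113493343, plus strand, GRCm38), was at 8.70, 9.01 and 5.07 CPM across WT 1 to 3 against 22.7, 23.8 and 19.1 CPM across CKO 1 to 3. The groups were apart by more than their spread, at 7.59 ± 2.19 CPM (SD, n = 3) for the WT group versus 21.9 ± 2.48 CPM (SD, n = 3) for the CKO group, but the gene rested on 30 reads in WT and 88 in CKO. It showed a log2 difference of 1.44 (SE 0.31) with a limma adjusted p of 0.026, and the call was lost with DESeq2, with the replicate number as a block (adjusted p 0.054) and without any 1 of WT 1, WT 2, WT 3, CKO 1 or CKO 3.

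Canx, the membrane-bound partner of Calr, had the lowest difference of the chaperones. It was at 141, 153 and 117 CPM in WT, compared with 120.3, 147 and 114 CPM in CKO, all within a narrow span, and differed by -0.11 ± 0.18 (SE). Hyou1 (GRP170), Dnajb9 (ERdj4) and Dnajb11 (ERdj3), which assist Hspa5, had differences of 0.45, 0.45 and 0.40 and their highest value in CKO 2, and without CKO 2 the differences were -0.05, 0.08 and 0.18. The adjusted p of the 8 genes high in CKO 2 ranged from 0.46 to 0.81 with all libraries. In the fit without CKO 2, Creld2 passed the threshold as lower (-0.71, adjusted p 0.033), and Hspa5 stood at -0.44 with an adjusted p of 0.18.

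All 4 protein disulfide isomerases had a negative difference and P4hb passed the threshold. P4hb, which forms disulfide bonds and is also the β subunit of the prolyl 4-hydroxylase that modifies collagen (chr11:120560298-120573253, minus strand, GRCm38), had the highest WT level per kilobase among the 52 genes, at 1162 CPM. It was at 3454, 3128 and 3389 CPM in the WT libraries versus 2124, 2104 and 1919 CPM in the CKO libraries, or 3324 ± 173 CPM (SD, n = 3) for the WT group versus 2049 ± 113 CPM (SD, n = 3) for the CKO group. The 3 libraries of each group lay close together and far from the other group, a log2 difference of -0.70 (SE 0.13) with a limma adjusted p of 0.015. The call was lost without any 1 of WT 1, WT 2, CKO 1 or CKO 3, with an adjusted p of up to 0.094.

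Pdia6 showed the split of CKO 2 within this group. It was at 912, 889 and 814 CPM across WT 1 to 3 against 585, 1329 and 590.2 CPM across CKO 1 to 3, so that CKO 1 and CKO 3 were below all WT libraries and CKO 2 above them. Its difference was -0.17 ± 0.28 (SE) with all libraries and -0.57 without CKO 2 (adjusted p 0.013). Pdia3 (ERp57), the partner of Calr and Canx, was at 1736, 1406 and 1249 CPM in WT, compared with 1137, 1880.2 and 1146 CPM in CKO and had the highest difference of the group, -0.10 ± 0.21 (SE). Pdia4 differed by -0.16 ± 0.19 (SE). Pdia3 and Pdia6 each overlap another gene of the table on the opposite strand.

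Among the 4 degradation genes, 2 had a positive and 2 a negative difference and none passed the threshold. In limma, 0 had an unadjusted p under 0.05. Herpud1, a membrane protein that gathers the degradation complex, was at 594, 535 and 639 CPM in the WT libraries versus 316, 779.5 and 299.9 CPM in the CKO libraries. CKO 1 and CKO 3 lay below the WT libraries and CKO 2 above them, and the difference moved from -0.49 ± 0.31 (SE) to -0.93 (adjusted p 0.0018) without CKO 2. Edem1, which trims mannose from misfolded glycoproteins, was at 49.3, 51.8 and 48.2 CPM across WT 1 to 3 against 58.5, 105 and 52.9 CPM across CKO 1 to 3, with all CKO libraries above WT and a difference of 0.46 ± 0.26 (SE) that was 0.16 without CKO 2. Syvn1 (HRD1), the ubiquitin ligase of the complex, was at 36.2, 52.5 and 58.3 CPM in WT, compared with 37.1, 59.2 and 36.4 CPM in CKO, with overlapping groups.

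Of the 7 translocon genes, 6 had a negative and 1 a positive difference, with a median of -0.30. Ssr4, the δ subunit of the translocon-associated complex (chrX:73787028-73790830, plus strand, GRCm38), was at 946, 959 and 1207 CPM in the WT libraries versus 644, 543 and 644 CPM in the CKO libraries, or 1037 ± 147 CPM (SD, n = 3) for the WT group versus 610.4 ± 57.9 CPM (SD, n = 3) for the CKO group. All CKO libraries were below WT, a log2 difference of -0.76 (SE 0.16) with a limma adjusted p of 0.021. The call was lost without any 1 of the same 4 libraries as for P4hb, with an adjusted p of up to 0.076. The other subunits of the complex were less far apart, with -0.37 ± 0.14 (SE) for Ssr2, -0.29 ± 0.14 (SE) for Ssr3 and -0.06 ± 0.19 (SE) for Ssr1.

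The channel itself was not uniform. Sec61a1, its pore, was at 433, 422 and 476 CPM across WT 1 to 3 against 338, 347 and 359 CPM across CKO 1 to 3, and Sec61b at 1131, 1138 and 1184 CPM in WT, compared with 988, 842 and 978 CPM in CKO. In both, every CKO library was below every WT library, with an adjusted p of 0.18 and 0.23. Sec61g, the γ subunit, was at 647, 611 and 654 CPM in the WT libraries versus 869, 671 and 991 CPM in the CKO libraries, every CKO library above WT, with a difference of 0.39 ± 0.17 (SE) (adjusted p 0.21) that was 0.54 without CKO 2 (adjusted p 0.018). Each of these 3 genes and Ssr2 has 1 near-identical copy in the annotation, to which reads could have been assigned.

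The 7 genes of COPII export all had a negative difference, with a median of -0.29, and none passed the adjusted threshold. In limma 2 of them, Sec24d and Sec31a, had an unadjusted p under 0.05. Sec24d, the cargo-binding subunit whose loss is known to impair collagen export, was at 147, 153 and 176 CPM across WT 1 to 3 against 110.0, 93.1 and 103 CPM across CKO 1 to 3. The groups did not overlap, and the difference of -0.63 ± 0.16 (SE) had a limma adjusted p of 0.051, the nearest to the threshold from outside.

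Sec13, of the outer coat, had the highest difference of the COPII genes. It was at 460.3, 441 and 710.5 CPM in WT, compared with 504, 441 and 530.4 CPM in CKO and differed by -0.10 ± 0.20 (SE). Sec31a, its partner, was at 316, 267 and 423 CPM in the WT libraries versus 265, 167 and 274 CPM in the CKO libraries, with CKO 2 the lowest library. Mia3 (TANGO1), which loads collagen into vesicles, was at 65.2, 57.8 and 103 CPM across WT 1 to 3 against 46.8, 65.0 and 50.3 CPM across CKO 1 to 3, with CKO 2 at the level of WT 1. Sec23a, Sar1a and Sar1b differed by -0.19 ± 0.18 (SE), -0.29 ± 0.20 (SE) and -0.25 ± 0.18 (SE), all with overlapping groups. WT 3 was the highest library in each of the 7 genes, and Sec24d was the 1 gene of the 7 without overlap.

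Another 136 genes of the same pathways, listed by their known roles, had a row and were no members. Of these, 131 were tested, 43 with a positive and 88 with a negative difference, and 2 rose and 13 fell past the adjusted threshold. Over all 12155 genes tested, 6180 were positive and 5975 negative, and 3.18% rose and 2.6% fell. The median difference was -0.18 in the pathway genes and 0.013 over all genes tested. Among 21 folding enzymes 2 were positive and 19 negative, with 3 past the threshold as lower. Fkbp9, a prolyl isomerase of the ER, fell most clearly by p, at 702, 585 and 777 CPM in WT, compared with 221, 197 and 322 CPM in CKO, with a ratio of CKO to WT means of 0.359 and a limma adjusted p of 0.0033. Fkbp9 and Nfe2l1 stayed past the threshold whichever library was left out, and each of the other 13 lost the call without at least 1 library.

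Nfe2l1, a factor held in the ER membrane that raises proteasome genes, was at 218, 231 and 265 CPM in the WT libraries versus 118, 112 and 107 CPM in the CKO libraries (-1.08 ± 0.16 (SE), limma adjusted p 0.0047). The subunit Krtcap2 of the oligosaccharyl transferase fell (-0.86 ± 0.14 (SE)), as did Copz2 of the COPI coat (-1.58 ± 0.27 (SE)), the SNARE Bet1 (-0.88 ± 0.17 (SE)) and the p24 protein Tmed1 (-0.91 ± 0.19 (SE)). Os9, a lectin of degradation, was at 114, 133 and 112 CPM across WT 1 to 3 against 46.1, 71.5 and 63.3 CPM across CKO 1 to 3 and fell too, with a limma adjusted p of 0.022. Bax, a protein of apoptosis, rose (0.88 ± 0.17 (SE)), at 472, 430.0 and 324 CPM in WT, compared with 739, 798 and 699 CPM in CKO, and Ergic2, which cycles between ER and Golgi, rose too (0.63 ± 0.16 (SE)). Ergic2, Atf3, Atf4, Asns, Psat1, Slc3a2, Sesn2, Ddit4 and Derl3 lie outside the rule for named genes and were chosen after their values were seen.

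In the Atf4 branch beyond the 52 genes, 5 genes had a positive and 5 a negative difference. Atf4 itself was at 606, 648 and 622 CPM in the WT libraries versus 512, 649 and 509.6 CPM in the CKO libraries, with overlapping groups. Mthfd2, of mitochondrial folate metabolism, was at 441, 422 and 469 CPM across WT 1 to 3 against 259, 234 and 262 CPM across CKO 1 to 3 (-0.82 ± 0.14 (SE), limma adjusted p 0.01), and Nupr1 fell too (-1.10 ± 0.22 (SE)). Asns (-0.24 ± 0.16 (SE)) and Psat1 (0.38 ± 0.24 (SE)), targets of Atf4 in amino acid synthesis, did not pass the threshold.

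These are bulk libraries, in which fewer cells of a type and less RNA per cell cannot be told apart. Of 12 chondrocyte markers 10 fell, and their sum was 25179 to 32682 CPM in WT and 6418 to 6944 CPM in CKO, with Col2a1 at 2720.2, 3133 and 3944 CPM in WT, compared with 1411, 1950.2 and 1426 CPM in CKO. CKO 2 was the highest CKO library in that sum, though by little. The 8 osteoblast markers summed to 928 to 1452 CPM in WT and to 1603, 580 and 1679 CPM in CKO 1, 2 and 3, and the 13 mitochondrial mRNAs to 2019 to 2191 CPM in WT and 2995, 1675 and 3110 CPM in CKO. CKO 2 was thus below the other CKO libraries in both sums while it was above them in the chaperones, and the part of these differences in the results was not tested. The osteoblast sum does not show a rise shared by its markers. Ibsp was at 129, 82.5 and 109 CPM in WT, compared with 708, 83.0 and 808 CPM in CKO, with overlapping groups. Col1a1 and Col1a2 were below WT in all CKO libraries. Col1a2, which fell, was the only osteoblast marker past the adjusted threshold.

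The 6 hypertrophic markers summed to 1341 to 4485 CPM in WT and 12309 to 14403 CPM in CKO. Most of the CKO sum was Spp1 (11114, 11877 and 12045 CPM), the only marker of the 6 past the adjusted threshold. Mmp13 was at 257, 260 and 650 CPM in WT, compared with 2155, 377 and 2301 CPM in CKO, with overlapping groups. Col10a1, Alpl and Runx2 also overlapped, and Ihh averaged under 1 CPM and was not tested. The sum therefore does not show a rise shared by these markers. The 7 tendon and perichondrium markers summed to 2779 to 4441 CPM in WT and 1014 to 1834 CPM in CKO. The 8 macrophage markers summed to 64.5 to 304 CPM and 202 to 208 CPM (Cd68 rose), and the 3 of 6 osteoclast markers with a row to 89.9 to 96.1 CPM and 104 to 117 CPM. Muscle markers reached 248 CPM in CKO 2, of which Myog gave 179 CPM, against at most 162 CPM elsewhere. That sum in CKO 2 rests mainly on Myog, and none of the tested muscle markers passed the adjusted threshold. Keratinocyte markers (5 of 7 with a row) reached 118 CPM in CKO 1, of which Sbsn, which rose, gave 83.9 CPM. For secretory B cells, a cell type rich in these genes, the 2 of 5 markers with a row were at or near 0, with a sum of at most 3.61 CPM, and the neutrophil (2 of 7 with a row), endothelial (5 of 6) and red cell (4 of 7) markers summed to at most 5.77, 15.8 and 28.9 CPM, the last in CKO 2.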

How the data were processed

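RNA of growth plate cartilage was measured in 6 libraries, 3 WT and 3 CKO, grouped by the genotype in the labels. The authors deposited CPM per gene and library. Per the labels, reads were trimmed with cutadapt (version 2.5), aligned with HISAT2 and counted with featureCounts (version 1.6.3) after a stranded mRNA kit, while genome build, annotation and strand setting are not given in the sources used here. CPM summed to 1000000 in each library, and 100% of the values were whole reads within 0.01 reads. At this depth low genes are imprecise, and read limits cover counting error only.

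With limma (version 3.58.1 in R 4.3.3), log2(CPM + 1) was fitted on genotype for the 12155 genes that averaged 1 CPM or more, with moderated variances that follow the mean and p-values adjusted by Benjamini-Hochberg. The pseudocount shrinks the fold changes of low genes. The pipeline was tested on simulated data. Alternatives were edgeR (version 4.0.16) and DESeq2 (version 1.42.0) on the recovered reads, TMM scaling, a pseudocount of 0.1, no filter, an average of 10 CPM or more, a replicate block and each library left out. Genes were placed on GRCm38 with GENCODE M21 by Ensembl identifier, which matched 15212 of 15803 genes. Near-identical copies were sought with BLAST (version 2.17.0) at 90% identity over 300 bp. Levels per kilobase divide mean CPM by the summed length of a gene's exons.

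The 52 genes, the pathway and marker lists and the motifs were chosen with earlier results of these data known. Full values are given for genes past the adjusted threshold or the criterion of the study, for the highest and lowest difference in each role group and for the 3 genes nearest outside the threshold. Of the other pathway genes up to 10 past the threshold are named by p. Genes high in CKO 2, and further genes described beside these, were chosen after their values were seen.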

Additional observations from a re-analysis of the deposited data

How the results depend on the processing

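Trib3 and Kdelr2 kept direction and call in all 13 alternatives, and no setting turned the direction of any of the 6 called genes. Among the other settings, DESeq2 and the fit with a replicate block gave 0 members as higher in place of 1, and DESeq2, TMM scaling and the block gave 1 of the other pathway genes as higher in place of 2. Leaving out each library in turn gave 0 to 2 members higher and 2 to 10 lower past the adjusted threshold, 2 to 4 lower by the criterion of the study, and 0 to 3 higher and 3 to 21 lower among the other pathway genes, with the highest adjusted counts without CKO 2. Those fits have fewer libraries. The median over the 52 genes ranged from -0.26 (without CKO 2) to -0.09 (without CKO 1).

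The log2 difference of 18 genes, none of them called, changed sign when a library was left out, with ranges of -0.44 to 0.90 for Hspa5, -0.23 to 0.85 for Hsp90b1, -0.054 to 0.81 for Hyou1, -0.094 to 1.30 for Dnajc3, -0.41 to 0.62 for Sdf2l1, -0.33 to 0.68 for Manf, -0.71 to 1.43 for Creld2, -0.34 to 0.025 for Pdia3, -0.57 to 0.024 for Pdia6, -0.20 to 0.50 for Atf6, -0.083 to 0.42 for Ern1, -0.11 to 1.08 for Eif2ak3, -0.54 to 0.077 for Ddit3, -0.77 to 0.25 for Ppp1r15a, -0.36 to 0.62 for Sel1l, -0.19 to 0.093 for Ssr1, -0.22 to 0.12 for Sec13 and -0.29 to 0.50 for Tmed2. The change came without CKO 2 for all of the chaperones among them. The cause of the other changes was not tested, and sign changes were not counted over all genes.

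The deviations of same-numbered WT and CKO libraries from their group means correlated at 0.038, -0.131 and -0.103. With 3 libraries a group these values depend on one another, and they can neither show nor exclude a pairing by number. The paper states that mice were compared with littermates, and whether the replicate numbers follow litters is not known here. With the replicate block, 6 members were lower in place of 5, 0 were higher, and 225 and 160 genes of the table passed as higher and lower in place of 387 and 316. No library correlated best with its own number. The 3 sensors of the unfolded protein response rest on 7 to 97 reads a group, with standard errors of 0.38 to 0.66 on the log2 scale.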

Other observations

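The 30 genes that stood out most in CKO 2 against the highest of the other 5 libraries also held genes known to be induced by interferon, all of them named after their values were seen. Usp18 was 8.41 times the highest of the others, Ifit1 6.66, Isg15 6.02, Oas1a 5.32, Irf7 3.89, Ifit3 3.48 and Ifi44 3.29 times. Txnrd1 and Nqo1, genes of the oxidative stress response, were 4.12 and 3.53 times the highest of the others, and Myog, a muscle factor, 5.17 times. On the low side, 155 of the 6827 genes were at least 2-fold lower in CKO 2 than in the lowest of the other 5 libraries, and 0 of the 50 ER and secretory genes were among them.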
